A study of Drosophila melanogaster with 33 samples.

Results

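The genes described are the 8 Drosophila insulin-like peptide genes, Ilp1 to Ilp8, and the insulin receptor gene InR. A gene was represented by a probe set that the array annotation lists to that gene alone, and where a gene had several, by the brightest on average. On this rule 5 of the 9 genes could be followed, out of 11981 genes represented in the same way. These were Ilp2 (probe set 1629220_at), Ilp5 (1624745_at), Ilp7 (1624169_at), Ilp8 (1625664_at) and InR (1629141_at), each with 1 probe set. Ilp1, Ilp3, Ilp4 and Ilp6 had no probe set listed to them alone in the annotation used and were not analysed here. Genes were tested if 3 or more arrays exceeded 4 on the log2 scale, which left 8263 genes with all 5 of these among them.

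Insulin-like peptides of flies are secreted ligands of the insulin receptor, a receptor tyrosine kinase that acts through the substrate Chico, phosphoinositide 3-kinase, Pdk1 and Akt, and holds the transcription factor FoxO out of the nucleus. In the larval brain, Ilp2, Ilp3 and Ilp5 are made by a small cluster of median neurosecretory neurons, the insulin-producing cells, whose axons release the peptides at the aorta and ring gland, and their output couples feeding to body growth. Ilp7 is made by a few neurons of the ventral nerve cord, and Ilp8 is a relaxin-like peptide that damaged or overgrowing imaginal discs release to delay metamorphosis through the receptor Lgr3 in the brain.

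Expression had been measured with Affymetrix arrays on total RNA, 1 array per sample, in larval brains mutant for l(3)mbt, in tumours grown from them and in wild-type brains. The protein of l(3)mbt is a chromatin factor with malignant brain tumour repeats. The mutant brains were homozygous for the allele ts1 at 29 °C (6 arrays, 3 from the site IRB and 3 from the site EMBL) and at 17 °C (3, EMBL), homozygous for E2 at 29 °C and at 17 °C (3 each, IRB), and transheterozygous ts1/E2 at 29 °C (3, IRB). The tumours came from ts1 and were taken at round 1, round 5 and round 10 of allograft culture in adult flies (3 arrays each, IRB), so host tissue could be present in them. Wild type (WT) was w1118, with 3 arrays at IRB and 3 at EMBL. No temperature is given for WT, no age for any larva, and nothing says whether the arrays of a group hold separate pools of animals or tumours. The p-values below therefore cover only the variation among these samples, which may be technical, and a comparison with WT does not part the allele from the temperature.

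All values are log2 expression values on the GCRMA scale that the authors deposited. The lower quartile of an array lay at 2.23 to 2.3, and values below 4 are called near background here. The size of a difference from a group near background is not exact. Levels of different genes cannot be set against each other, because each probe set has its own scale. Differences were taken within a site and were called at an adjusted p under 0.05 (limma, Benjamini-Hochberg over the 8263 genes) together with at least 1 on the log2 scale, a 2-fold change. The l(3)mbt transcript itself was at 5.66 to 8.95 over the mutant brains, 8.48 to 9.39 over the tumours and 6.91 to 7.85 over WT. Its level cannot check the genotype labels, since the alleles are not described as removing the transcript. On 3 arrays, replicate 1 of E2 at 29 °C, replicate 2 of ts1 at 17 °C and replicate 3 of ts1 at 29 °C, the 5′ minus 3′ log2 signal of a control transcript (eIF4a) was -11.96, -5.25 and -4.94. On the other 30 arrays the same difference was -2.38 or higher. In bulk RNA of this kind, fewer cells of a type and less RNA per cell cannot be told apart.

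Ilp2 and Ilp5 were near background in all 9 tumours and were far lower in ts1 brains at 29 °C from IRB than in WT. The same genotype at the same temperature from EMBL kept both genes high. Ilp8 showed the opposite pattern, being near background in nearly all brains and higher in the tumours. InR was over 4 on every array, with its lowest value, 4.07, on replicate 2 of ts1 at 17 °C. It was higher in round 5 tumours than in WT. Ilp7 was near background on most arrays and passed 4 on 11 of 33.

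**Figure D1:**
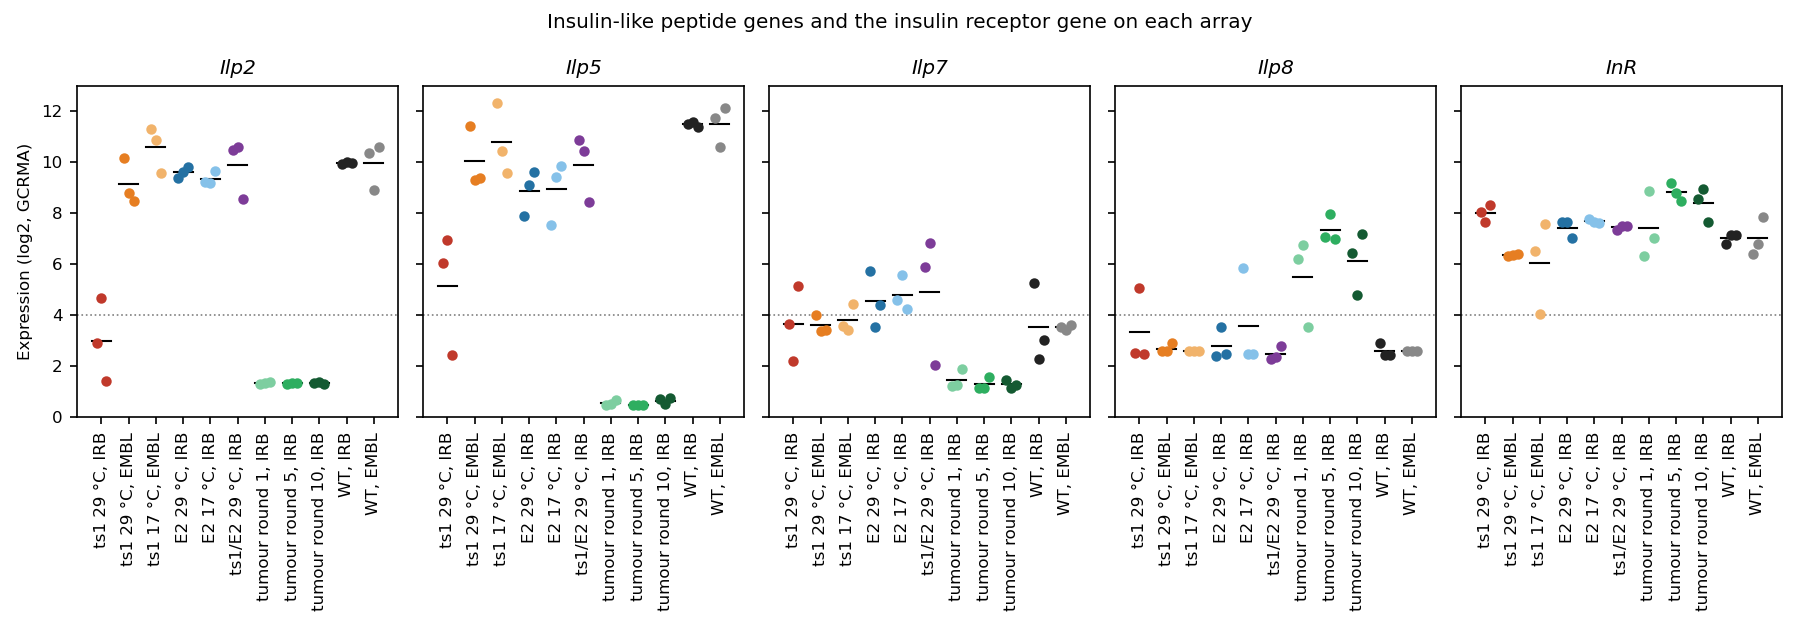
Log2 expression (GCRMA scale) of the 5 genes on each of the 33 arrays, with 1 panel per gene and 1 column per group and site, 3 arrays each. Points are arrays, short black lines are group means, and the dotted line marks the value of 4. Ilp2 and Ilp5 lie at the bottom in the 9 tumours, at 1.32 to 1.38 and 0.47 to 0.75, and Ilp8 lies highest there.

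Ilp2, a peptide often used as a marker of the insulin-producing cells, had log2 values of 2.92, 4.67 and 1.43 in ts1 brains at 29 °C from IRB (replicates 4, 5 and 6), against 9.93, 10.01 and 9.98 in WT from IRB. All 3 mutant arrays lay far below every WT array, and only replicate 5 was over 4. The means were 3.0 ± 1.62 in the ts1 brains and 9.97 ± 0.04 in WT (SD, n = 3 each). The difference was -6.97 ± 0.61 on the log2 scale (SE, limma, Benjamini-Hochberg adjusted p = 1.21e-08). Ilp5, made in the same cells, had 6.07, 6.96 and 2.43 in these ts1 brains, against 11.52, 11.57 and 11.41 in WT from IRB. Here too the groups did not overlap, although replicates 4 and 5 stayed above 4. The Ilp5 difference was -6.34 ± 0.88 (SE, limma, Benjamini-Hochberg adjusted p = 2.31e-05). Replicate 6, the lowest ts1 array in both genes, was among 5 arrays left out together in an alternative fit described below. Leaving out 1 array at a time, the differences ran from -7.8 to -6.18 for Ilp2 and from -7.25 to -4.98 for Ilp5, all called.

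These 2 of the 5 genes fell in ts1 brains at 29 °C from IRB and none rose, where 8.79% of all tested genes were called in either direction and 5.68% were called lower. Ilp7, Ilp8 and InR did not pass the test there. InR had 8.04, 7.66 and 8.35 in the ts1 brains against 6.82, 7.14 and 7.14 in WT from IRB. Its 3 mutant arrays were above the 3 WT arrays, but the difference of 0.99 ± 0.60 missed the threshold (limma, Benjamini-Hochberg adjusted p = 0.333). The 95% interval of that difference ran from -0.256 to 2.229. Ilp8 was near background on replicates 4 and 6, at 2.52 and 2.48, and stood at 5.06 on replicate 5.

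At EMBL the same ts1 brains at 29 °C gave 10.19, 8.82 and 8.48 for Ilp2 (replicates 1, 2 and 3), against 10.36, 8.92 and 10.62 in WT from EMBL. The groups overlapped. The Ilp2 difference was -0.80 ± 0.61, with a 95% interval from -2.055 to 0.449 (SE, limma, Benjamini-Hochberg adjusted p = 0.537). Ilp5 had 11.45, 9.31 and 9.39 in the ts1 brains, against 11.73, 10.62 and 12.15 in WT from EMBL. Replicate 1 of ts1 lay within the WT range and the other arrays of ts1 lay below it, and the difference of -1.45 ± 0.88 did not pass (limma, Benjamini-Hochberg adjusted p = 0.387). None of the 5 genes was called at EMBL, where 6.77% of all tested genes were.

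The difference between the sites was tested itself, as the ts1 minus WT difference at IRB less that at EMBL. It was -6.16 ± 0.86 for Ilp2 (SE, limma, Benjamini-Hochberg adjusted p = 9.09e-05) and -4.90 ± 1.24 for Ilp5 (adjusted p = 0.0233). Of all tested genes, 3.68% were called for this difference, and 2.59% of all tested genes were called lower. The Ilp5 call was lost without replicate 6 of ts1, at -3.54 (adjusted p = 0.0787), and it was also lost without replicate 1 of ts1 (-4.2, 0.0775) or without replicate 1 (-4.89, 0.0568), replicate 2 (-4.87, 0.055) or replicate 5 (-4.46, 0.0784) of WT. The Ilp2 call held without any of these arrays. The deposited values had been centred so that WT means are equal at both sites for every probe set. The centring cancels in a difference from WT within a site, and levels at the 2 sites are not directly comparable.

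Some other neurosecretory genes were lower beside Ilp2 and Ilp5 in the ts1 brains at 29 °C from IRB. Of 10 tested genes of a list of neurosecretory cells, 3 fell and none rose against WT, where 5.68% of all genes were called lower. The list median was -1.07 beside -0.14 over all genes. The 3 were Dh44, a diuretic hormone (-3.45 ± 0.37, adjusted p = 5.74e-07), Eh, the eclosion hormone (-2.33 ± 0.49, adjusted p = 0.00315), and Crz, corazonin (-1.68 ± 0.40, adjusted p = 0.00746; SE, limma, Benjamini-Hochberg). None of 4 pan-neuronal genes was called, with a list median of -0.35 beside -0.14 over all genes. Their summed log2 level was 12.22 to 12.79 in these ts1 brains and 12.59 to 12.62 in WT from IRB. The sum follows elav, which averaged 12.34 and 12.16. Yet nSyb lay at 8.19 to 8.65 against 9.25 to 9.29 in WT, without overlap. Syn lay at 7.36 to 9.36 against 9.69 to 9.96, also without overlap. The ranges of elav and brp overlapped those of WT. Whether fewer neurosecretory cells were present was not tested.

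At EMBL 6.77% of all genes were called in either direction. The ts1 brains at 29 °C there also had 3 of the 10 neurosecretory genes lower. They were Dh44 (-1.32 ± 0.37, adjusted p = 0.025), Eh (-2.64 ± 0.49, adjusted p = 0.000831) and amon, a prohormone convertase gene (-1.35 ± 0.34, adjusted p = 0.0107; SE, limma, Benjamini-Hochberg). Markers of other cells moved with them. Of 4 pan-neuronal genes nSyb was lower (-1.63 ± 0.41, adjusted p = 0.0106), with a list median of -1.29 beside -0.01 over all genes. Of 6 glial genes repo was lower (-1.34 ± 0.38, adjusted p = 0.0256; limma, Benjamini-Hochberg), with a list median of -0.44. At IRB none of the 6 glial genes was called, with a list median of -0.49 beside -0.14 over all genes. There moody lay at 7.45 to 8.01 against 8.33 to 9.44 in WT, without overlap. Mdr65 lay at 7.98 to 9.99 against 10.37 to 11.02, and the ranges of the other glial genes met or overlapped WT. The part of neurons and glia in these results was not tested. Eh fell at both sites, by sizes that lay within 1 SE of each other, while Ilp2 and Ilp5 passed only at IRB. For Dh44 the site difference itself was called, at -2.12 ± 0.53 (limma, Benjamini-Hochberg adjusted p = 0.0211).

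Markers of larval fat body, a tissue that can stay attached to a dissected brain, differed too. All 3 tested larval fat body genes were lower in the ts1 brains at 29 °C from IRB than in WT, a comparison that called 5.68% of all genes lower. The summed log2 level of the fat body genes was 5.57 to 6.79 against 11.38 to 12.97. Of these genes Fbp1 was also lower than WT in groups where Ilp2 was not called: E2 at 29 °C (-6.98, with Fbp2 at -4.69), ts1/E2 (-5.34), ts1 at 17 °C (-6.48) and ts1 at 29 °C from EMBL (-4.28). None of 6 tested ring gland genes was called in these ts1 brains, with a list median of 0.76 beside -0.14 over all genes. One of them, Akh, the adipokinetic hormone of the corpora cardiaca, was at 3.14, 3.12 and 2.97, against 9.23, 3.28 and 10.56 in WT from IRB. Akh thus went against the list median. The WT array with Akh at 3.28 (replicate 2) had Ilp2 at 10.01, and the ts1/E2 array with Akh at 2.62 (replicate 1) had Ilp2 at 10.50. The part of attached tissue in the Ilp2 and Ilp5 differences was not tested.

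In E2 brains and in ts1/E2 brains neither Ilp2 nor Ilp5 differed from WT beyond the test, although every array had Ilp5 below WT. Ilp2 had 9.40, 9.64 and 9.81 in E2 at 29 °C, 9.23, 9.21 and 9.66 in E2 at 17 °C and 10.50, 10.62 and 8.55 in ts1/E2 at 29 °C, against 9.93, 10.01 and 9.98 in WT from IRB. The E2 arrays lay just below the WT arrays and the ts1/E2 arrays on both sides of them. The 3 differences were -0.35, -0.60 and -0.08, each with an SE of 0.61. Ilp5 had 7.89, 9.11 and 9.63 in E2 at 29 °C, 7.56, 9.42 and 9.86 in E2 at 17 °C and 10.87, 10.45 and 8.44 in ts1/E2, against 11.52, 11.57 and 11.41 in WT from IRB.

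All 12 mutant brain arrays from IRB, the ts1 arrays included, had Ilp5 below all 3 WT arrays, a pattern met by 4.01% of the tested genes. Against WT the Ilp5 difference was -2.62 ± 0.88 in E2 at 29 °C (adjusted p = 0.0539), -2.55 ± 0.88 in E2 at 17 °C (adjusted p = 0.0977) and -1.58 ± 0.88 in ts1/E2 (adjusted p = 0.332; SE, limma, Benjamini-Hochberg). None of these passed, and each was called in at least 1 of the alternative fits. The 3 WT arrays at IRB spanned only 11.41 to 11.57, while the 3 at EMBL spanned 10.62 to 12.15.

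None of the 5 genes was called against WT in E2 at 29 °C (9.06% of all genes), in E2 at 17 °C (4.27%), in ts1/E2 (5.87%) or in ts1 at 17 °C (1.19%). Ilp7 had 5.90, 6.83 and 2.07 in ts1/E2, against 5.26, 2.31 and 3.02 in WT from IRB, with a difference of 1.40 ± 0.86 (limma, Benjamini-Hochberg adjusted p = 0.394). Without replicate 3 of ts1/E2 that difference was 2.83 and was called (adjusted p = 0.0204). Ilp8 was near background on all of these arrays except replicate 1 of E2 at 17 °C, which stood at 5.87 beside 2.47 and 2.47 on the other arrays of that group.

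At 29 °C the E2 and ts1/E2 brains could be set directly against the ts1 brains of the same site. Ilp2 was higher by 6.61 ± 0.61 in E2 (adjusted p = 9.04e-08) and by 6.89 ± 0.61 in ts1/E2 (adjusted p = 3.94e-08), and no array overlapped. Ilp5 was higher by 3.73 ± 0.88 in E2 (adjusted p = 0.00954) and by 4.77 ± 0.88 in ts1/E2 (adjusted p = 0.000872; SE, limma, Benjamini-Hochberg). These 2 comparisons share the ts1 arrays, and in each the other 3 genes were not called. They called 5.87% (E2) and 6.4% (ts1/E2) of all genes, 4.16% and 5.34% as higher. Without replicate 6 of ts1, the lowest ts1 array, the Ilp5 difference of E2 was 2.36 and no longer called (adjusted p = 0.0573). Between ts1/E2 and E2 at 29 °C no member was called, in a comparison that called 0.109% of all genes.

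Raising the temperature changed none of the 5 genes beyond the test in either allele. In ts1 at EMBL, Ilp2 had 10.19, 8.82 and 8.48 at 29 °C, against 11.32, 10.88 and 9.60 at 17 °C, and these ranges overlapped. The difference of -1.43 ± 0.61 did not pass (95% interval -2.687 to -0.183, limma, Benjamini-Hochberg adjusted p = 0.272), where 2.26% of all genes were called. In E2 at IRB the Ilp2 difference between 29 °C and 17 °C was 0.25 ± 0.61 (adjusted p = 0.835), where 6.52% of all genes were called. The temperature effect of ts1 less that of E2 was -1.68 ± 0.86 for Ilp2 (adjusted p = 0.717), and no member was called, where 0.375% of all genes were. In ts1 at 17 °C InR had 6.52, 4.07 and 7.60, and the lowest value was on the array with a weak 5′ control signal.

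In the tumours the transcripts of Ilp2 and Ilp5 were not measurable above background at any round. Ilp2 had 1.32, 1.36 and 1.37 at round 1, 1.32, 1.36 and 1.35 at round 5 and 1.34, 1.38 and 1.32 at round 10, against 9.93, 10.01 and 9.98 in WT from IRB. Ilp5 had 0.50, 0.51 and 0.69 at round 1, 0.50, 0.50 and 0.47 at round 5 and 0.71, 0.52 and 0.75 at round 10, against 11.52, 11.57 and 11.41 in WT. Both genes lay under the lower quartile of the arrays in every tumour. The differences from WT at the 3 rounds were -8.62, -8.63 and -8.62 for Ilp2 and -10.93, -11.01 and -10.84 for Ilp5, with SEs of 0.61 and 0.88 (limma, Benjamini-Hochberg adjusted p at most 4.38e-10).

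Of the 5 genes, round 1 tumours had 2 lower and 1 higher than WT, where 14.3% of all genes were lower and 12.7% higher. Round 5 tumours had 3 lower (13.7%) and 2 higher (12.9%), and round 10 tumours had 3 lower (13.5%) and 1 higher (12.3%). Over both directions 27.0%, 26.6% and 25.8% of all tested genes were called at rounds 1, 5 and 10, so a single call in a tumour is a common event. The 3 comparisons share the WT arrays.

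**Figure D2:**
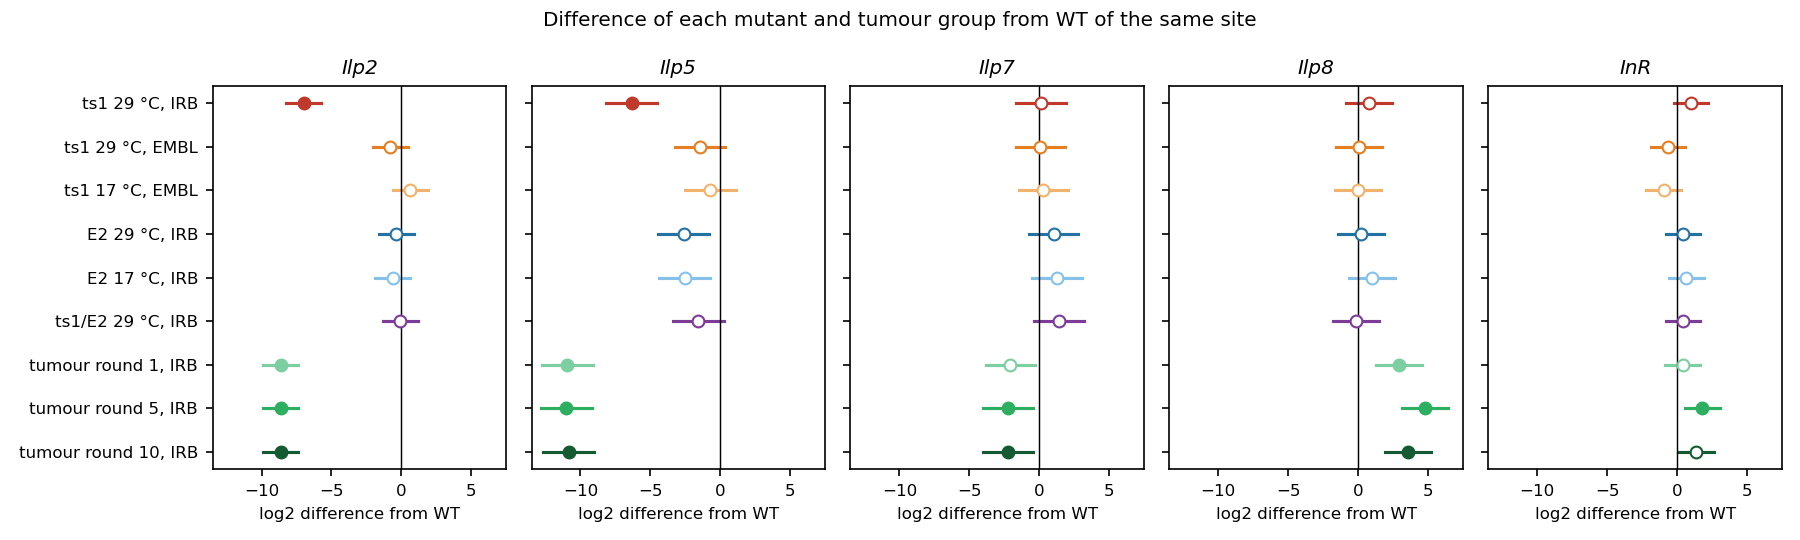
Log2 difference of each mutant and tumour group from WT of the same site, with 1 panel per gene. Points are differences with their 95% interval from limma, filled where called at an adjusted p under 0.05 and at least 1 on the log2 scale. Ilp2 and Ilp5 are filled in ts1 at 29 °C from IRB and in all 3 tumour rounds, and Ilp8 is filled on the higher side in all 3 tumour rounds.

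Round 1 tumours were lower than the ts1 brains at 29 °C from IRB as well. For Ilp5 the difference was -4.59 ± 0.88 (SE, limma, Benjamini-Hochberg adjusted p = 0.00026), with tumour arrays at 0.50 to 0.69 and brain arrays at 2.43 to 6.96. For Ilp2 it was -1.66 ± 0.61 (adjusted p = 0.037), with both groups averaging near background. Without replicate 5 of ts1, the only such array over 4, the Ilp2 difference was -0.82 and not called (adjusted p = 0.274). The Ilp2 call was also lost without any of the 3 tumour arrays or without replicate 4 of ts1 (-1.7 to -1.64, adjusted p 0.0717 to 0.0797). This comparison called 26.2% of all genes, 10.6% as lower and 15.5% as higher.

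Ilp7 had 1.23, 1.29 and 1.91 at round 1, 1.14, 1.14 and 1.60 at round 5 and 1.46, 1.14 and 1.28 at round 10, against 5.26, 2.31 and 3.02 in WT from IRB. The tumours lay below every WT array, but the WT mean of 3.53 ± 1.54 (SD, n = 3) was itself near background. The difference from WT was -2.06 ± 0.86 at round 1 (adjusted p = 0.0667), -2.24 ± 0.86 at round 5 (adjusted p = 0.0462) and -2.24 ± 0.86 at round 10 (adjusted p = 0.0474; SE, limma, Benjamini-Hochberg). The calls at rounds 5 and 10 rest on few arrays. Without replicate 1 of WT the difference was -1.37 at both rounds (adjusted p = 0.287 and 0.295). They were also lost without replicate 3 of WT (-2.5 and -2.49, adjusted p = 0.0586 and 0.0608) and without any 1 tumour array of the round. Against the ts1 brains at 29 °C from IRB, round 1 tumours were lower in Ilp7 by a difference of -2.20 ± 0.86 with an adjusted p of 0.04999 (limma, Benjamini-Hochberg). That call was lost without replicate 6 of ts1 (-1.46, 0.283), without replicate 4 of ts1 (-2.21, 0.0986) and without any of the 3 tumour arrays.

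The genes whose group means were most alike those of Ilp2 and Ilp5 included other neuropeptide genes. Likeness was Pearson's r over the 11 group-by-site means, each of 3 arrays, and is given as a description. For Ilp2 the 3 highest were flip (r = 0.99), Burs, a subunit of the hormone bursicon (0.985), and FMRFa, an FMRFamide-related neuropeptide gene (0.983). For Ilp5 they were CCAP, crustacean cardioactive peptide (0.991), jdp (0.991) and PXo (0.988). Ilp5 itself ranked 12 in likeness to Ilp2, with r = 0.974. The 3 tumour means are low for all of these genes and weigh heavily in such values. flip averaged 3.69 in WT, near background, and over 4 only in ts1/E2 (4.17). Burs spanned 3.54 to 7.84 over the WT arrays from IRB.

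FMRFa averaged 3.96 in ts1 at 29 °C from IRB and 1.14, 1.08 and 1.09 in the tumours of rounds 1, 5 and 10, against 8.71 in WT. At EMBL the ts1 brains at 29 °C averaged 8.35 for FMRFa, and its site difference was called, at -4.39 ± 0.90 (limma, Benjamini-Hochberg adjusted p = 0.00547). CCAP averaged 4.51 in ts1 at 29 °C from IRB, 7.21 in ts1 at 29 °C from EMBL and 0.17, 0.66 and 0.48 in the tumours, against 8.07 in WT. Both genes were chosen for this likeness, so their order of levels is a description.

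**Figure D3:**
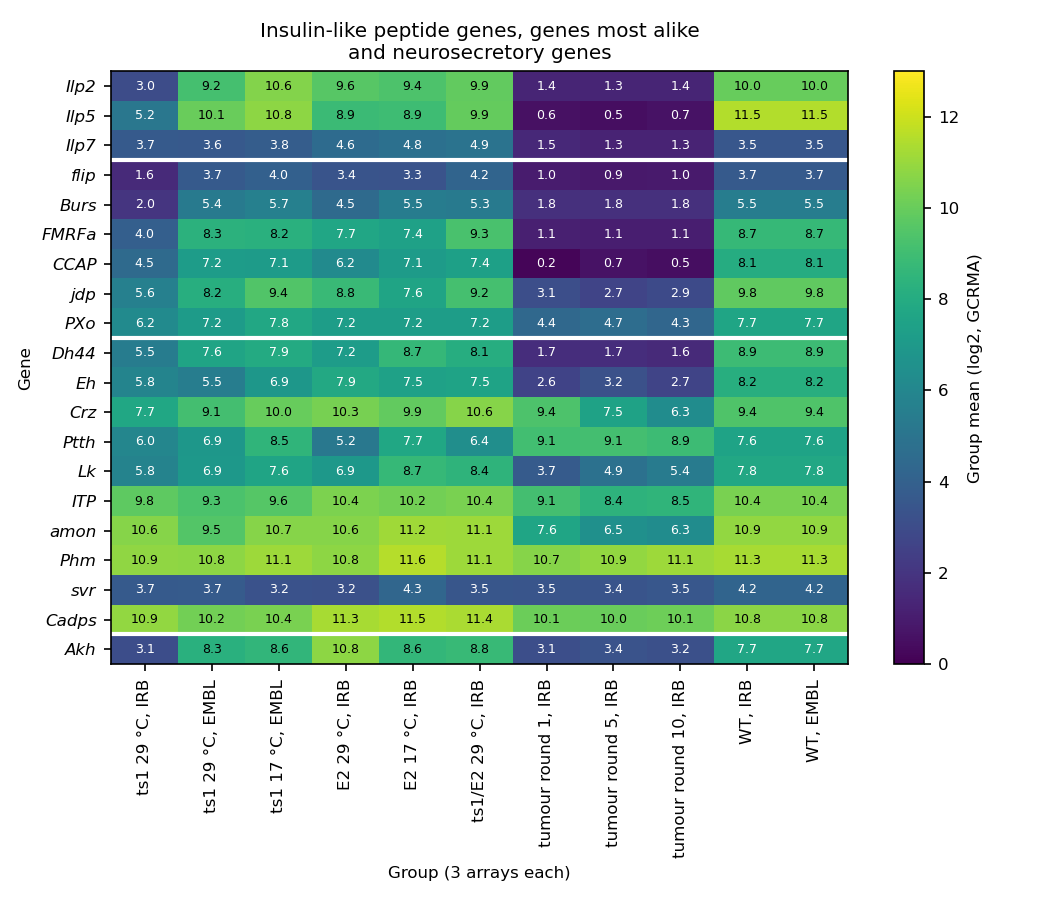
Mean log2 expression (GCRMA scale, 3 arrays each) of the insulin-like peptide genes Ilp2, Ilp5 and Ilp7, of the genes most alike Ilp2 and Ilp5, of the neurosecretory list and of Akh, in each group and site. Ilp2, Burs and FMRFa are low in ts1 at 29 °C from IRB and in the tumours, while Ptth and Crz average 9.08 and 9.36 in round 1 tumours. The WT columns of both sites agree because the deposited values had been centred on WT.

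In the tumours every tested neurosecretory gene except Ptth averaged below WT at each round, some of them only slightly. Of 10 tested genes 5 fell at round 1, 6 at round 5 and 5 at round 10 and none rose. Of all genes 14.3%, 13.7% and 13.5% were called lower at these rounds. The list medians were -1.01, -1.94 and -2.13 beside -0.01, 0.09 and 0.09 over all genes. Dh44 fell at the 3 rounds (-7.23, -7.22 and -7.36 on the log2 scale), as did Eh (-5.54, -4.96 and -5.5) and the convertase gene amon (-3.26, -4.38 and -4.57). Crz averaged 9.36 at round 1, 7.5 at round 5 and 6.31 at round 10, against 9.41 in WT, and it fell at rounds 5 and 10 (-1.91 and -3.10, limma, Benjamini-Hochberg adjusted p = 0.000443 and 8.26e-07). Ptth, the prothoracicotropic hormone gene, averaged 9.08, 9.09 and 8.92 in the tumours, against 7.56 in WT, and was not called.

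Other cell types differed between tumours and WT brains. Of 4 tested pan-neuronal genes 2, 3 and 4 fell at rounds 1, 5 and 10, where 14.3%, 13.7% and 13.5% of all genes were called lower. The summed log2 level of the pan-neuronal genes was 10.31 to 11.71 over the tumours against 12.59 to 12.62 in WT from IRB. The glial gene repo averaged 7.26, 6.68 and 7.23 at the 3 rounds, against 11.56 in WT. Their part in the loss of Ilp2 and Ilp5 signal was not tested.

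Of 14 tested genes known to regulate the insulin-producing cells, 4 fell and none rose in the ts1 brains at 29 °C from IRB, where 5.68% of all genes were called lower. The list median was -0.24 beside -0.14 over all genes. The 4 were sNPF, short neuropeptide F (-2.11), TkR99D, a tachykinin receptor (-1.69), CCHa2, a peptide of gut and fat body that signals to the cells (-2.56), and daw, a TGF-beta family ligand (-3.31; limma, Benjamini-Hochberg adjusted p 0.000288 to 0.035). In tumours 7, 6 and 6 of the 14 fell at rounds 1, 5 and 10, where 14.3%, 13.7% and 13.5% of all genes were called lower, and 2, 0 and 1 rose. The list medians were -1.05, -0.69 and -0.64 beside -0.01, 0.09 and 0.09 over all genes. sNPF fell at the 3 rounds (-7.54, -7.72 and -7.58), and TkR99D fell by 4.97 at each. The serotonin receptor gene 5-HT1A also fell (-2.62, -2.69 and -3.21). Gbp1 and Gbp2, growth-blocking peptides of the fat body, rose at round 1 by 2.94 and 4.25 (adjusted p = 0.000125 and 0.000245).

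Ilp8, the relaxin-like peptide, had 6.20, 6.78 and 3.53 in round 1 tumours, 7.08, 7.99 and 7.01 in round 5 tumours and 6.43, 4.80 and 7.20 in round 10 tumours, against 2.92, 2.44 and 2.46 in WT from IRB. Every tumour array was above every WT array, and only replicate 3 of round 1 was under 4. The means were 5.5 ± 1.73, 7.36 ± 0.55 and 6.14 ± 1.22 at rounds 1, 5 and 10, against 2.61 ± 0.27 in WT (SD, n = 3 each). The differences from WT were 2.90 ± 0.80 at round 1 (adjusted p = 0.00588), 4.75 ± 0.80 at round 5 (adjusted p = 3.57e-05) and 3.53 ± 0.80 at round 10 (adjusted p = 0.00107; SE, limma, Benjamini-Hochberg). WT was near background, so these sizes are not exact.

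The round 1 call was lost without replicate 2 of that round, at 2.26 (adjusted p = 0.0506), and those of rounds 5 and 10 were kept without any 1 array. Over the 24 brain arrays Ilp8 passed 4 on 2, replicate 5 of ts1 at 29 °C (5.06) and replicate 1 of E2 at 17 °C (5.87), and over the 9 tumours it did so on 8. Against the ts1 brains at 29 °C from IRB, Ilp8 was higher in round 1 tumours by 2.15 ± 0.80 (limma, Benjamini-Hochberg adjusted p = 0.0395). That call was lost without replicate 2 (1.51, 0.211) or replicate 1 (1.8, 0.14) of the tumours and without replicate 4 (1.73, 0.156) or replicate 6 (1.71, 0.178) of ts1. Between rounds no difference in Ilp8 passed: round 5 was above round 1 by 1.86 ± 0.80 (adjusted p = 0.268), and the round 10 minus round 5 difference was -1.22 ± 0.80 (adjusted p of 1.0). No member was called between rounds 5 and 1 (4.49% of all genes), 10 and 5 (0.29%) or 10 and 1 (5.91%).

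Marker genes of adult host tissue were examined beside Ilp8. Of 6 tested genes of adult fat body, muscle and blood cells, 6, 2 and 4 were higher than in WT at rounds 1, 5 and 10. Of all genes 12.7%, 12.9% and 12.3% were called higher at these rounds. The 2 host genes higher at round 5 were the blood cell genes Hml and NimC1. The summed log2 level of the 6 host genes was 10.14 to 12.6 at round 1, 7.19 to 8.21 at round 5 and 8.54 to 9.73 at round 10, against 5.26 to 5.65 in WT from IRB. Yp1, a yolk protein gene of the female fat body and ovary, was at 11.94, 11.29 and 9.9 on replicates 1, 2 and 3 of round 1, at 6.22, 3.19 and 3.91 at round 5 and at 5.43, 8.63 and 8.69 at round 10. The blood cell gene Hml was at 6.93, 8.86 and 4.87 at round 1, at 4.32, 6.49 and 6.58 at round 5 and at 5.87, 6.48 and 5.56 at round 10. Hml does not mark adult host tissue alone, since it was also at 6.09 on a brain array, replicate 1 of E2 at 17 °C. That array had Ilp8 at 5.87. On replicate 5 of ts1 at 29 °C, with Ilp8 at 5.06, Hml was at 2.34. Within round 1 the array lowest in Ilp8 (replicate 3) was also the lowest in Yp1 and Hml, and within round 5 the array highest in Ilp8 (replicate 2) was the lowest in Yp1. Ilp8 is known to be made in ovarian follicle cells of adult females. Of 5 genes of these cells 1 was tested (Fcp3C), and it was lower than WT at rounds 5 and 10 (-2.90 and -2.77). Fcp3C averaged 5.56 in WT brains and 7.58 in ts1 brains at 29 °C from EMBL, so it is not particular to follicle cells here. The other follicle genes averaged under 4 in every group, so the list sum follows Fcp3C. That sum was 6.04 to 6.27 at round 1, 4.46 to 4.98 at round 5 and 4.5 to 5.04 at round 10, against 5.99 to 6.22 in WT. These values cannot show whether follicle tissue was present. The part of host tissue in the Ilp8 signal was not tested.

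Genes of the pathways known to induce Ilp8 in damaged or overgrowing discs, the JNK and Yorkie pathways, were examined beside it. Of 10 listed genes 5 were tested. Of these, 2, 3 and 3 rose at rounds 1, 5 and 10 and none fell, where 12.7%, 12.9% and 12.3% of all genes were called higher. The list medians were 0.95, 1.11 and 1.30 beside -0.01, 0.09 and 0.09 over all genes. The genes that rose were upd1, a JAK-STAT ligand (2.33, 3.98 and 3.95), ex, a Yorkie target (1.58, 1.57 and 2.10), and puc, a JNK target, at rounds 5 and 10 (1.11 and 1.30; limma, Benjamini-Hochberg adjusted p at most 0.0376). In ts1 brains at 29 °C ex was also higher, by 1.20 at IRB and 1.18 at EMBL, while Ilp8 was not called there (adjusted p = 0.639 at IRB). The part of these pathways in the Ilp8 signal was not tested.

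The genes most alike Ilp8 over the group means were CG13154 (r = 0.987), CG31897 (0.983) and CG13540 (0.978). All 3 rose against WT at each of the 3 rounds, CG13540 by 3.19, 6.13 and 4.06. Each averaged under 4 in every brain group. In gene order on the Release 6 assembly, among the 4 genes on either side of Ilp8, chosen after values were seen, 8 were tested. Of these 3 rose at round 1, 3 at round 5 and 2 at round 10, where 12.7%, 12.9% and 12.3% of all genes were called higher. A link between Ilp8 and its neighbours was not tested. CG7730, the nearest on the preceding side, rose by 2.54, 3.18 and 3.2, and Fit2 rose by 3.04, 3.47 and 3.78. The neighbour a10 was lower at rounds 5 and 10 (-1.97 and -2.12). The neighbours beg and scaf6 on the following side were not called in the tumours. Of 3 tested neighbours of Ilp2, 1, 2 and 2 fell at rounds 1, 5 and 10, where 14.3%, 13.7% and 13.5% of all genes were called lower. None was called in ts1 at 29 °C from IRB. CG32052 fell at the 3 rounds (-3.62, -3.77 and -3.72) and Ae2 at rounds 5 and 10 (-1.15 and -1.13). CG43897, which lies between Ilp2 and Ilp5, was not called in any round (1.85, -1.6 and -1.1). None of 3 tested neighbours of Ilp5, CG43897 included, was called in these comparisons.

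InR, the receptor, was over 4 on all 33 arrays. It had 6.35, 8.90 and 7.05 in round 1 tumours, 9.19, 8.79 and 8.49 in round 5 tumours and 8.56, 8.97 and 7.68 in round 10 tumours, against 6.82, 7.14 and 7.14 in WT from IRB. Round 5 and round 10 tumours lay above all WT arrays and round 1 tumours spread on both sides of them. The difference from WT was 0.40 ± 0.60 at round 1 (adjusted p = 0.663), 1.79 ± 0.60 at round 5 (adjusted p = 0.0229) and 1.37 ± 0.60 at round 10 (adjusted p = 0.0864; SE, limma, Benjamini-Hochberg), so InR rose at round 5, by 3.46-fold. The round 5 call was lost without replicate 1 of that round (1.61, 0.0846), without its replicate 2 (1.81, 0.0535) and without replicate 1 of WT (1.68, 0.0722).

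Over the brains from IRB, InR was 8.02 ± 0.35 in ts1 at 29 °C, 7.44 ± 0.37 in E2 at 29 °C, 7.69 ± 0.10 in E2 at 17 °C and 7.45 ± 0.09 in ts1/E2, against 7.03 ± 0.19 in WT (SD, n = 3 each). In descending order, the ranges of neighbours overlapped except for E2 at 17 °C (7.61 to 7.8) and ts1/E2 (7.35 to 7.5). Of the 12 mutant arrays 11 lay above all 3 WT arrays and none lay below them. At least 11 of the 12 did so for 4.89% of the tested genes. At EMBL, InR was 6.37 ± 0.05 in ts1 at 29 °C and 6.06 ± 1.81 in ts1 at 17 °C, against 7.03 ± 0.75 in WT. The site difference for ts1 at 29 °C was 1.64 ± 0.85 and did not pass (limma, Benjamini-Hochberg adjusted p = 0.261). The genes most alike InR were Crag (r = 0.964), psq (0.941) and Pde11 (0.936). InR and Ilp8 had r = 0.762 with each other.

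Downstream of the receptor a few genes were called in the tumours and most were not. Of 23 listed genes of insulin signal transduction, 11 were tested. At rounds 1, 5 and 10, 2, 3 and 3 of them rose and none fell, where 12.7%, 12.9% and 12.3% of all genes were called higher. The list medians were 0.15, 0.56 and 0.44 beside -0.01, 0.09 and 0.09 over all genes. foxo, the transcription factor that insulin signalling restrains, averaged 8.75 ± 0.55, 9.46 ± 0.10 and 9.7 ± 0.28 at the 3 rounds, against 6.95 ± 0.17 in WT from IRB. No tumour array of foxo overlapped WT, and it rose by 1.81, 2.51 and 2.76 (adjusted p = 0.00345, 0.000122 and 3.93e-05; limma, Benjamini-Hochberg). melt, which encodes the membrane adaptor Melted that binds FoxO and Tsc1, averaged 7.76 ± 0.92, 7.64 ± 0.79 and 7.86 ± 0.54, against 2.64 ± 0.48 in WT. It rose by 5.12, 5.0 and 5.22, from a WT level near background.

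Pdk1, the kinase that phosphorylates Akt, rose at round 5 by 1.49 (adjusted p = 7.26e-05) and at round 10 by 1.19 (adjusted p = 0.000928), and it was higher at round 5 than at round 1 by 1.30 (adjusted p = 0.00277; limma, Benjamini-Hochberg). chico, Akt, Tsc1, gig, rictor, Lst8, Sin1 and S6k were not called in any tumour round. For chico and gig only the 2-fold threshold was missed at some rounds. chico was higher at round 5 by 0.73 (adjusted p = 0.00898). gig was higher at rounds 5 and 10 by 0.56 and 0.62 (adjusted p = 0.0239 and 0.0135; limma, Benjamini-Hochberg). In the brains Akt was the only gene of this list called against WT. It was lower in ts1 at EMBL at 29 °C (-1.03 ± 0.21, adjusted p = 0.00206) and at 17 °C (-1.08 ± 0.21, adjusted p = 0.00562; limma, Benjamini-Hochberg), and its site difference at 29 °C was 1.44 ± 0.30 (adjusted p = 0.00585).

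**Figure D4:**
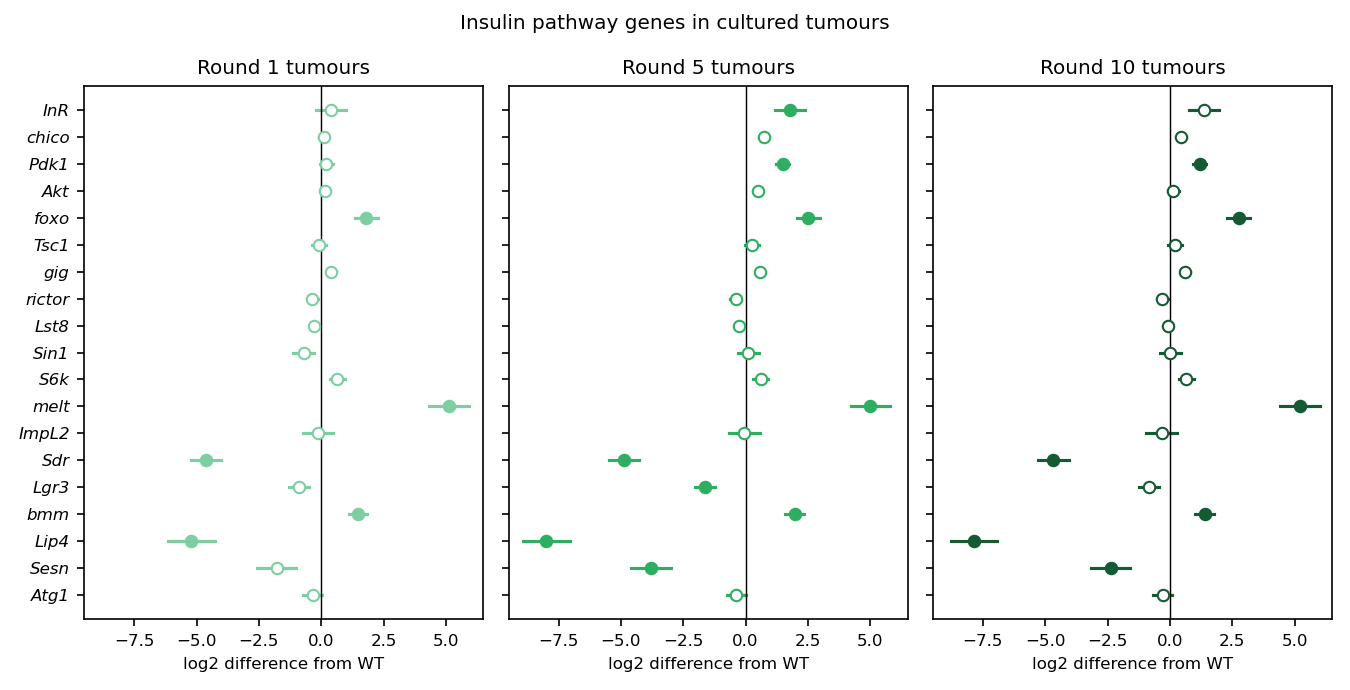
Log2 difference from WT of the same site for InR and the tested genes of insulin signalling in tumours of rounds 1, 5 and 10. Points are differences with bars of 1 SE on either side, filled where called. foxo and melt are filled on the higher side and Sdr and Lip4 on the lower side at all 3 rounds, while chico, Akt and S6k are open.

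Of 3 tested genes that bind insulin-like peptides or serve as relaxin-type receptors, Sdr, a secreted decoy of the insulin receptor made by glia, fell at every round. Sdr averaged 2.09 ± 0.73, 1.83 ± 0.26 and 2.02 ± 0.47 in tumours of rounds 1, 5 and 10, against 6.7 ± 0.10 in WT from IRB, with differences of -4.61, -4.87 and -4.67. It also fell in the ts1 brains at 29 °C from IRB, by 1.93 (limma, Benjamini-Hochberg adjusted p = 0.0448). Of 6 tested glial genes 3, 4 and 3 fell at rounds 1, 5 and 10 and none rose, where 14.3%, 13.7% and 13.5% of all genes were called lower. The list medians were -2.22, -3.03 and -1.58. The glial genes that fell were repo, moody and Mdr65 at every round and Tret1-1 at round 5. Gli averaged 8.14, 7.98 and 8.94 in the tumours against 8.11 in WT, and loco 9.06, 9.27 and 9.24 against 9.41, and neither was called. The part of glia in the Sdr difference was not tested. Lgr3, the receptor for Ilp8, was lower at round 5 (-1.63, adjusted p = 0.00211), where it averaged 3.92, near background. Against WT, Lgr3 was higher in E2 at 29 °C (1.22, adjusted p = 0.0492; limma, Benjamini-Hochberg). A link between Lgr3 and Ilp8 levels was not tested. ImpL2, a secreted protein that binds insulin-like peptides, was not called in any tumour round.

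The 4 tested targets of FoxO did not move one way in the tumours. bmm, the brummer lipase, rose by 1.47, 1.97 and 1.39 at the 3 rounds, while Lip4, a lipase induced by starvation, fell (-5.21, -7.99 and -7.85). Sesn, the sestrin gene, fell at rounds 5 and 10 (-3.79 and -2.37, adjusted p = 0.000459 and 0.0223; limma, Benjamini-Hochberg), and Atg1, an autophagy kinase, was not called. The list medians were -1.07, -2.08 and -1.33 beside -0.01, 0.09 and 0.09 over all genes.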

How the data were processed

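The authors measured total RNA of brains and tumours on 33 Affymetrix arrays. Values are deposited as log2 expression per probe set and come from GCRMA, per the submitters' processing notes. GCRMA corrects background by probe sequence and normalises between arrays. Its version and settings are not given in the sources used here. The WT means of the 2 sites differed by at most 6.7e-09 for any probe set, beside a median absolute difference of 0.319 in ts1 brains at 29 °C, so the deposited values had been centred on WT by site. No source used here describes that step.

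Of 18952 probe sets, 13646 named 1 gene in the annotation, 402 several and 4903 none, the 183 controls included. Arrays have no read depth, so the 3 arrays per group and site limit the precision. In R 4.3.3, limma 3.58.1 was fitted once to all arrays with 11 group-by-site means and empirical Bayes moderation, and contrasts were taken within a site. A common site term would take in part of the ts1 site difference. The script was tested on simulated data. Replicate numbers were checked for pairing: over 12 comparisons and 36 same-numbered pairs the correlation of deviations ran from -0.58 to 0.44, and in 0 comparisons did every pair exceed 0.1, so they were not used as pairs.

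The members and lists were chosen with earlier results of these data known. Named genes are the members, list genes called in the comparison at hand, and the 3 genes most alike each member. List genes given as not called, and the neighbours, stand beside them after their values were seen. Alternatives covered the design, the arrays fitted, the filter, probe sets, normalisation, variance prior, array weights, a replicate block and left-out arrays. Summed levels are log2 of summed linear values and follow the brightest genes.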

Additional observations from a re-analysis of the deposited data

Results flagged for a closer look

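The difference from WT of ts1 brains at 29 °C was tested between the sites, as the value at IRB less the value at EMBL, and it differed for 2 of the 5 genes. It was -6.16 for Ilp2 (limma, Benjamini-Hochberg adjusted p = 9.09e-05), where all 3 ts1 arrays at IRB and none at EMBL lay far below WT. It was -4.9 for Ilp5 (adjusted p = 0.0233).

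Single arrays stood apart within a group for Ilp8. Replicate 5 of ts1 at 29 °C had 5.06, far above the other arrays of that group. Replicate 1 of WT had 2.92, above the other arrays of WT, with all of them near background. The 10 sets examined were each 1 gene in 1 group of 6 arrays, with the arrays of both sites pooled. Chance marks about 1 in 20 of such sets if all arrays share 1 normal spread, which pooled sites may not. Groups of 3 arrays were not examined in this way.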

How the results depend on the processing

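Over 100 member differences, 24 were called, and 14 of these were called under every alternative run. Of 1640 alternative values, 1562 kept direction and call, 57 lost a call, 21 gained one and 0 called values changed sign, while 99 uncalled values did. The cause of the changes was not tested.

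A common site term gave Ilp2 and Ilp5 in ts1 at 29 °C from EMBL -3.88 and -3.9 against WT (called), since it fits 1 ts1 difference for both sites. It gave Ilp5 2.5 (E2) and 3.54 (ts1/E2) against ts1 at 29 °C, no longer called, Ilp7 -2.07 at round 1 (called) and InR 1.38 at round 5 (lost). Array weights called Ilp5 against WT in E2 at 17 °C (-2.25), E2 at 29 °C (-2.1), ts1 at 29 °C from EMBL (-1.9) and ts1/E2 (-2.25). They also called InR at round 10 (1.17), between rounds 5 and 1 (1.74) and for the site difference (1.88), and lost Ilp7 between round 1 and ts1 (-2.18). A robust trend called Ilp5 in E2 at 29 °C (-2.62).

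Without 5 arrays that stood apart (replicate 1 of E2 at 29 °C, replicate 2 of ts1 at 17 °C, replicates 3 and 6 of ts1 at 29 °C, replicate 2 of E2 at 17 °C), Ilp5 in E2 at 17 °C (-2.79), Ilp7 at round 1 (-2.06) and InR at round 10 (1.37) were called. Round 1 against ts1 then lost Ilp7 (-1.46) and Ilp8 (1.71). Of the 5 arrays, replicate 6 of ts1 at 29 °C (-2.38) and replicate 2 of E2 at 17 °C (-2.37) did not have the weak eIF4a 5′ signal. No rule is given here for setting those apart. Replicate 6 was the ts1 array lowest in Ilp2 (1.43) and Ilp5 (2.43). The arrays of IRB alone called InR at round 10 (1.37). They lost Ilp7 at rounds 5 and 10 (-2.24 each) and Ilp7 (-2.2) and Ilp8 (2.15) between round 1 and ts1. With no filter, where more genes were tested, the same 4 calls were lost at the same values, as was Ilp2 between round 1 and ts1 (-1.66). Quantile normalisation lost Ilp7 at round 5 (-1.94), round 10 (-1.93) and against ts1 (-2.17), and Ilp8 against ts1 (1.81). The mean of probe sets lost Ilp7 against ts1 (-2.2). The replicate block, a pairing the data do not bear out, lost Ilp7 at rounds 5 and 10 (-2.24 each) and against ts1 (-2.2).

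Leaving out 1 array at a time, round 1 against ts1 ran from -2.44 to -0.82 for Ilp2, -2.93 to -1.46 for Ilp7 and 1.51 to 3.13 for Ilp8. Ilp5 ran from 2.36 to 4.63 for E2 against ts1 at 29 °C, -3.0 to -2.13 for E2 at 29 °C against WT and -5.8 to -3.54 for the site difference. Against WT, Ilp7 ran from -2.67 to -1.19 at round 1, -2.85 to -1.37 at rounds 5 and 10 and 0.45 to 2.83 in ts1/E2, and from 0.31 to 2.69 for ts1/E2 against ts1. Ilp8 ran from 2.26 to 3.88 at round 1, and InR from 1.61 to 1.96 at round 5 and from 0.85 to 2.12 between rounds 5 and 1.

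Counts of called genes over all genes, the background of the members' counts, moved by over 1.5 times in places. Array weights gave 987 in place of 353 (E2 at 17 °C against WT), 1201 for 485 (E2 against ts1 at 29 °C), 857 for 488 (round 10 against 1), 299 for 24 (round 10 against 5), 707 for 371 (round 5 against 1), 274 for 98 (ts1 at 17 °C against WT) and 1094 for 559 (ts1 at 29 °C, EMBL). They gave 1595 for 726 (ts1 at 29 °C, IRB), 590 for 187 (ts1 at 29 °C against 17 °C), 19 for 9 (ts1/E2 against E2), 1169 for 529 (ts1/E2 against ts1), 1470 for 485 (ts1/E2 against WT), 2133 for 304 (site difference) and 95 for 31 (temperature effect between alleles). Without the 5 arrays the counts were 560, 733, 39, 908, 937 and 786 for E2 at 17 °C against WT, E2 against ts1, round 10 against 5, ts1/E2 against ts1, ts1/E2 against WT and the site difference, and 494 in place of 749 for E2 at 29 °C against WT. A common site term gave 221, 57, 94, 3 and 265 for E2 at 17 °C and ts1 at 17 °C against WT, ts1 at 29 °C against 17 °C, ts1/E2 against E2 and ts1/E2 against ts1. The arrays of 1 site alone gave 485 (E2 at 29 °C against WT), 8 (round 10 against 5) and 317 (ts1 at 29 °C against 17 °C), and ts1/E2 against E2 had 4 with the replicate block and 5 with a robust trend.

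Leaving out 1 array, counts against WT ran from 183 to 264 (E2 at 17 °C), 357 to 2459 (E2 at 29 °C, highest without its replicate 2 and next, at 1831, without its replicate 3), 55 to 241 (ts1 at 17 °C), 364 to 955 (ts1 at 29 °C, IRB) and 297 to 552 (ts1/E2). They ran from 356 to 1495 (E2 at 29 °C against 17 °C), 290 to 992 (E2 against ts1), 14 to 87 (round 10 against 5), 5 to 199 (ts1/E2 against E2), 344 to 669 (ts1/E2 against ts1), 173 to 903 (site difference) and 18 to 54 (temperature effect between alleles). Counts of tumours against WT stayed between 1882 and 2155. Signal near background limits Ilp7 everywhere, Ilp2 and Ilp5 in tumours and Ilp8 in brains, and 3 arrays per group limit all of them.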
